A study of Mus musculus with 9 samples.

Results

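The 9 genes described here are set apart by their order across 3 genotypes in mouse cumulus cells, which are granulosa cells attached to the oocyte. They are Cadps, Dab1, Gucy1a1, Galc, Zfp40, Hs3st3b1, Mapkbp1, Rerg and Gatm, 9 of 18194 genes with a probe set. They were chosen because their levels in Bmp15-/- cells lay away from wildtype while levels in the double mutant lay nearer wildtype, beyond it or scattered. That choice used the measured levels themselves, so the contrasts between genotypes are given for these genes as a description, with no p-value. The 9 arrays covered 3 samples each of DM (Bmp15-/-Gdf9+/-), Bmp15-/- and wildtype females on a mixed B6/129 background, aged 4 to 5 months. All had received 5 IU of equine chorionic gonadotropin 48 hours earlier. The cells were isolated in medium with 5 µM milrinone, a phosphodiesterase inhibitor that keeps oocytes in arrest, and each sample pooled cumulus cells of 75 to 100 complexes from 3 to 4 mice, so the spread between samples is a spread between pools. Values are log2 expression per probe set, in which a difference of 1 is a doubling.

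BMP15 and GDF9 are growth factors of the TGF-beta superfamily that the oocyte secretes. They act on receptors of the cumulus cells and signal through SMAD proteins, and they govern cumulus cell metabolism, proliferation and the later expansion of the complex. In mice of mixed strain, chromosome stretches of either parental strain can differ between lines as well as the targeted gene; strain of origin at each locus was not analysed here.

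The stretch before the start of transcription is shown for 3 of the genes, because Cadps was the gene in which all arrays of the 2 mutants lay on opposite sides of wildtype, Dab1 the one that scattered most between DM arrays, and Galc one with a second bright probe set on which the genotypes overlapped. RefSeq windows (GRCm38.p6) matched 7 of the 9 genes (all but Zfp40 and Rerg), with 9 windows in all. Each line gives the 250 bases upstream of a start, 5′ to 3′ on the gene's strand, and capitals mark GGCGCC, a GC-rich element that SMAD1 and SMAD5 can bind. The Cadps window is chr14:12823080-12823329 on the minus strand, the Dab1 windows are chr4:104367288-104367537 (start a) and chr4:103619250-103619499 (start b) on the plus strand, and the Galc window is chr12:98259460-98259709 on the minus strand.
Cadps: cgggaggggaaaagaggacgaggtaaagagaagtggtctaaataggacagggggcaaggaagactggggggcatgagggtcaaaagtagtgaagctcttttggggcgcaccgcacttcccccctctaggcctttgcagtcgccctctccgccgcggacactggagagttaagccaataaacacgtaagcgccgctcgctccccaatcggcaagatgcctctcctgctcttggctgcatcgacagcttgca
Dab1 start a: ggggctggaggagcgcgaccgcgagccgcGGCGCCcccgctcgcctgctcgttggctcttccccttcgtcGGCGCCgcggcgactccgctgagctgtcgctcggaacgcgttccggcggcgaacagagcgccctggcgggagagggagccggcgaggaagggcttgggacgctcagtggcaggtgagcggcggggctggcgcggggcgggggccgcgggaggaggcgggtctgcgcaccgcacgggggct
Dab1 start b: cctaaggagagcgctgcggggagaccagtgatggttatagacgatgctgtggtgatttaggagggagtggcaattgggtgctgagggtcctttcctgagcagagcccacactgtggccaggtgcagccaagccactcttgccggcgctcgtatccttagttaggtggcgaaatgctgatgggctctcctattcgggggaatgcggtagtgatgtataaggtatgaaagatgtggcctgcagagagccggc
Galc: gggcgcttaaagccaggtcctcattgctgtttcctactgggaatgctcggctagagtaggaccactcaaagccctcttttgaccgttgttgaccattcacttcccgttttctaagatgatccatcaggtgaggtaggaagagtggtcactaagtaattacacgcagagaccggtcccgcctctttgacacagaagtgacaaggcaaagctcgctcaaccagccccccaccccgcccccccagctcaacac
GGCGCC, which reads the same on both strands, was found in 1 of the 9 windows, at 2 places in Dab1 start a, and in 9.59% of 32851 windows of all genes. CAGACA, which holds the core that SMAD3 and SMAD4 bind, was searched on both strands and was found in 0 of the 9 windows and in 17.1% of all windows. The 3 genes' windows held 58.0% G and C in Cadps, 78.0% and 56.4% in the 2 Dab1 windows and 54.0% in Galc, against a median of 52.4% over all windows.

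Of the 9 genes, 8 were lower in Bmp15-/- than in wildtype and 1, Rerg, was higher, while limma called 5.78% of all genes lower and 3.29% higher in this comparison. In pooled cells, fewer cells of a type and less RNA per cell cannot be told apart. Every one of the 9 differed between these genotypes by over 1 on the log2 scale. In 8 of the 9 all Bmp15-/- arrays lay outside the range of the other 6 arrays, the exception being Dab1. Among all 13447 genes tested, 1.94% had the Bmp15-/- arrays below the other 6 and 1.79% had them above, and nothing is read from the members' count because the pattern chose them.

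**Figure D1:**
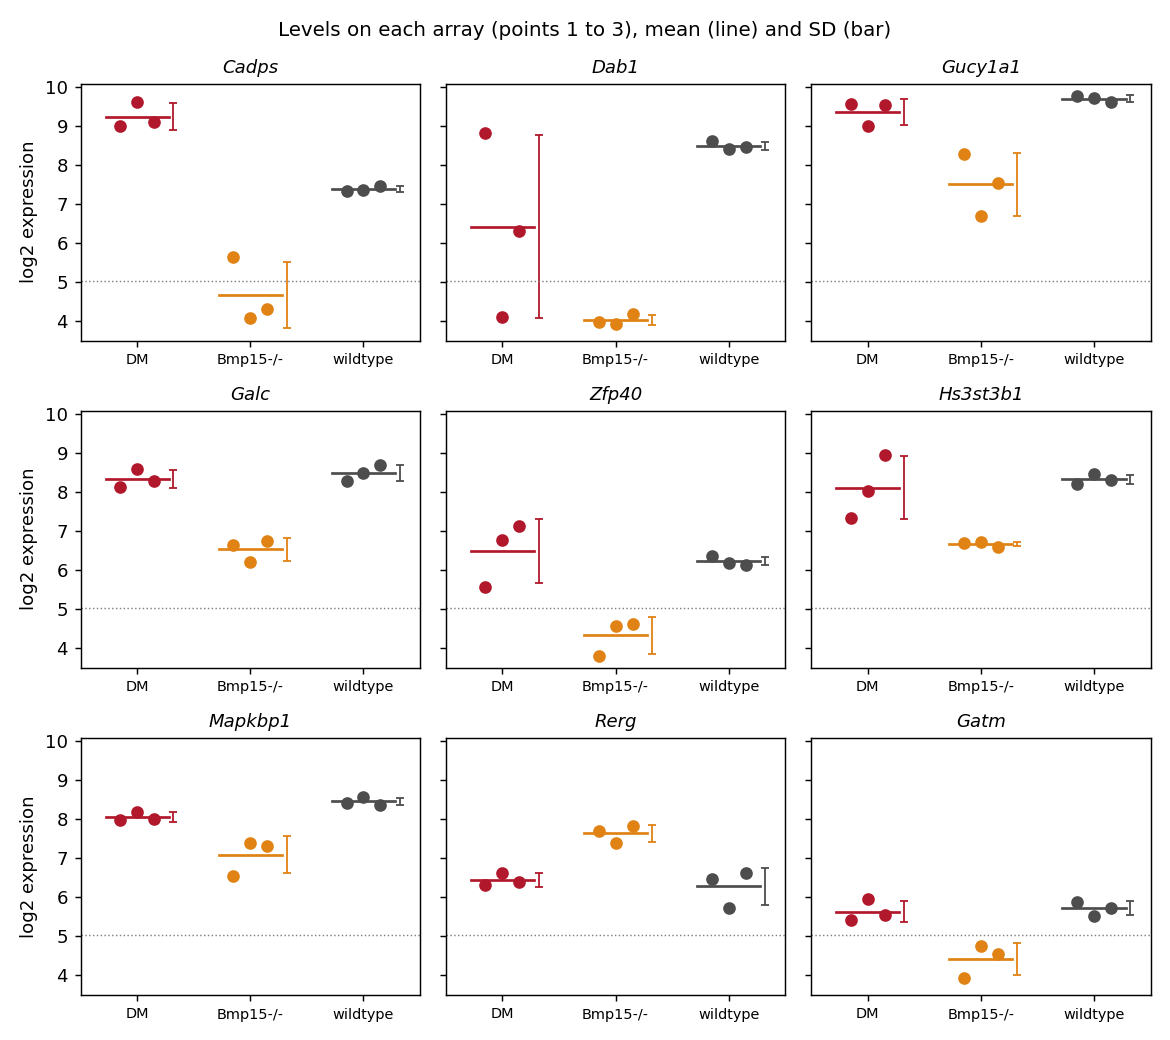
Levels of the 9 genes on each array, log2 expression on the vertical axis and genotype on the horizontal axis. Points are arrays 1 to 3, horizontal lines are means, bars are SD and the dotted line is the mean of the arrays' 40th percentiles. Bmp15-/- arrays sit apart from wildtype in every panel, and DM arrays spread from 4.10 to 8.81 in Dab1.

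Cadps encodes a calcium-dependent activator protein that primes dense-core vesicles for secretion. Its single probe set, 1448955_s_at, read 9.00, 9.62 and 9.10 in DM, 5.64, 4.08 and 4.29 in Bmp15-/-, and 7.32, 7.36 and 7.47 in wildtype. The 3 genotypes did not overlap: DM was highest, wildtype lay between and Bmp15-/- was lowest. The means were 9.24 ± 0.34 in DM, 4.67 ± 0.85 in Bmp15-/- and 7.38 ± 0.08 in wildtype (SD, n = 3 each). Bmp15-/- was thus 6.55-fold lower than wildtype, while DM was 3.63-fold higher than wildtype and 23.8-fold higher than Bmp15-/-. Bmp15-/- arrays 2 and 3 were below the 40th percentile of their array, the level taken as dim, so the fold against them rests on a signal near background. Of all genes tested, 27 (0.201%) had every Bmp15-/- array below and every DM array above wildtype, and 17 had the opposite arrangement. Cadps2, the related gene of the same family, averaged 9.14 ± 0.15 in DM, 8.99 ± 0.19 in Bmp15-/- and 8.99 ± 0.11 in wildtype cells, with overlapping arrays.

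Dab1 encodes the adaptor that passes on the reelin signal from the receptors VLDLR and LRP8. The brightest of its 5 probe sets, 1435578_s_at, read 8.81, 4.10 and 6.31 in DM, 3.96, 3.91 and 4.16 in Bmp15-/-, and 8.61, 8.40 and 8.46 in wildtype. DM array 1 lay above wildtype, DM array 2 lay within the Bmp15-/- range and DM array 3 lay between. Dab1 was 22.3-fold lower in Bmp15-/- than in wildtype, with all 3 Bmp15-/- arrays and 1 DM array dim, and with dim values raised to the 40th percentile the log2 difference was -3.45, against -4.48 as measured. A second probe set, 1435577_at, gave the same order of the DM arrays, with 6.55, 3.56 and 4.85 in DM, 3.69, 3.56 and 3.85 in Bmp15-/-, and 6.58, 6.58 and 6.59 in wildtype. Probe set 1427308_at had 5.02, 3.99 and 4.49 in DM, 3.86, 4.42 and 4.15 in Bmp15-/-, and 5.27, 5.67 and 5.55 in wildtype. Both of these also placed DM array 1 highest and DM array 2 lowest of the DM arrays. On both, however, the DM mean lay nearer Bmp15-/- than wildtype, and 1427308_at was dim on all DM and Bmp15-/- arrays. The other Dab1 probe sets stayed between 4.08 and 5.98 on all arrays. Dab1 averaged 6.41 ± 2.35 in DM, 4.01 ± 0.13 in Bmp15-/- and 8.49 ± 0.11 in wildtype. The log2 difference of DM from wildtype was -2.08 with all arrays, -0.93 without DM array 2 and -3.28 without DM array 1, so a single mean does not describe DM for this gene.

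Gucy1a1 encodes the alpha subunit of soluble guanylate cyclase, the receptor for nitric oxide that makes cyclic GMP. Probe set 1434141_at read 9.57, 8.99 and 9.55 in DM, 8.28, 6.68 and 7.53 in Bmp15-/-, and 9.78, 9.71 and 9.61 in wildtype. All DM arrays lay slightly below all wildtype arrays, and all Bmp15-/- arrays lay below both. Bmp15-/- was 4.60-fold lower than wildtype, whereas the log2 difference of DM from wildtype was -0.33. The other 2 Gucy1a1 probe sets did not follow: one stayed between 5.25 and 5.72 on all arrays and the other, between 4.23 and 4.95, was dim throughout. Gucy1b1 encodes the beta subunit that pairs with it, and it is also the nearest tested gene on one side. Gucy1b1 averaged 7.34 ± 0.11 in DM, 6.73 ± 0.57 in Bmp15-/- and 7.22 ± 0.39 in wildtype, and did not pass the limma test between Bmp15-/- and wildtype (log2 difference -0.50, adjusted p = 0.272).

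Mapkbp1 encodes a scaffold protein that binds the kinase JNK. Probe set 1423403_at read 7.98, 8.20 and 8.01 in DM, 6.54, 7.40 and 7.32 in Bmp15-/-, and 8.43, 8.58 and 8.38 in wildtype. The 3 genotypes did not overlap, and DM lay between the others but nearer wildtype. Bmp15-/- was 2.60-fold lower than wildtype and the log2 difference of DM from wildtype was -0.40. A second probe set, 1450973_s_at, had 7.66, 8.11 and 7.80 in DM, 7.31, 7.39 and 7.25 in Bmp15-/-, and 8.26, 8.10 and 8.02 in wildtype, a smaller 1.75-fold difference between Bmp15-/- and wildtype in the same direction. Mapkbp1 is the only one of the 9 genes whose second probe set was above the dim level on every array and gave the same order.

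Rerg encodes a RAS-like GTPase named for its regulation by estrogen and its inhibition of growth. It was the gene with the opposite direction, where probe set 1451236_at read 6.30, 6.63 and 6.39 in DM, 7.69, 7.40 and 7.83 in Bmp15-/-, and 6.47, 5.73 and 6.63 in wildtype. DM arrays fell within the wildtype range, and all Bmp15-/- arrays lay above both. The mean was 2.57-fold higher in Bmp15-/- than in wildtype and 2.30-fold higher in Bmp15-/- than in DM. Wildtype array 2 was the lowest of all, and without it the difference between Bmp15-/- and wildtype was 1.09 on the log2 scale, against 1.36 with it.

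Galc encodes galactosylceramidase, the lysosomal enzyme whose loss causes Krabbe disease. One probe set, 1452907_at, read 8.14, 8.60 and 8.28 in DM, 6.64, 6.20 and 6.74 in Bmp15-/-, and 8.28, 8.49 and 8.70 in wildtype. DM and wildtype overlapped and every Bmp15-/- array lay below them, a 3.89-fold difference from wildtype. A second probe set, 1420547_at, was bright on every array and read 7.85, 8.07 and 7.40 in DM, 8.07, 7.49 and 7.63 in Bmp15-/-, and 7.76, 7.65 and 7.99 in wildtype. There the genotypes overlapped and the mean differed by -0.07 between Bmp15-/- and wildtype. The remaining one was dim on all arrays, between 3.48 and 3.69, so the 3.89-fold difference rests on 1 of 3 probe sets; which transcripts each one detects was not analysed here.

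Hs3st3b1 encodes a 3-O-sulfotransferase that finishes the modification of heparan sulfate chains. Probe set 1433977_at read 7.33, 8.03 and 8.95 in DM, 6.69, 6.73 and 6.60 in Bmp15-/-, and 8.22, 8.47 and 8.31 in wildtype. Bmp15-/- lay below all other arrays with a range of 0.13, while DM spread over 1.62, on both sides of wildtype. Bmp15-/- was 3.16-fold lower than wildtype. The log2 difference of DM from wildtype was -0.23 with all arrays, -0.65 without DM array 3 and 0.16 without DM array 1. The other Hs3st3b1 probe sets were at or near the dim level on all arrays.

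Gatm encodes the amidinotransferase that carries out the first step of creatine synthesis. Its probe set, 1423569_at, read 5.41, 5.94 and 5.54 in DM, 3.93, 4.75 and 4.54 in Bmp15-/-, and 5.87, 5.52 and 5.73 in wildtype. DM overlapped wildtype, and every Bmp15-/- array lay below both and was dim. The 2.47-fold difference between Bmp15-/- and wildtype was the smallest of the 9 genes. With levels below the 40th percentile raised to it, the difference shrank to -0.68 on the log2 scale, against -1.30 as measured.

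Zfp40 encodes a zinc finger protein. Probe set 1435984_at read 5.56, 6.77 and 7.13 in DM, 3.79, 4.57 and 4.61 in Bmp15-/-, and 6.35, 6.18 and 6.14 in wildtype. DM array 1 lay below wildtype and DM arrays 2 and 3 above it, while all Bmp15-/- arrays were dim and below the rest. Bmp15-/- was 3.74-fold lower than wildtype as measured, and with dim values raised to the 40th percentile the log2 difference was -1.19, against -1.90. The other 3 Zfp40 probe sets were dim on all 9 arrays.

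**Figure D2:**
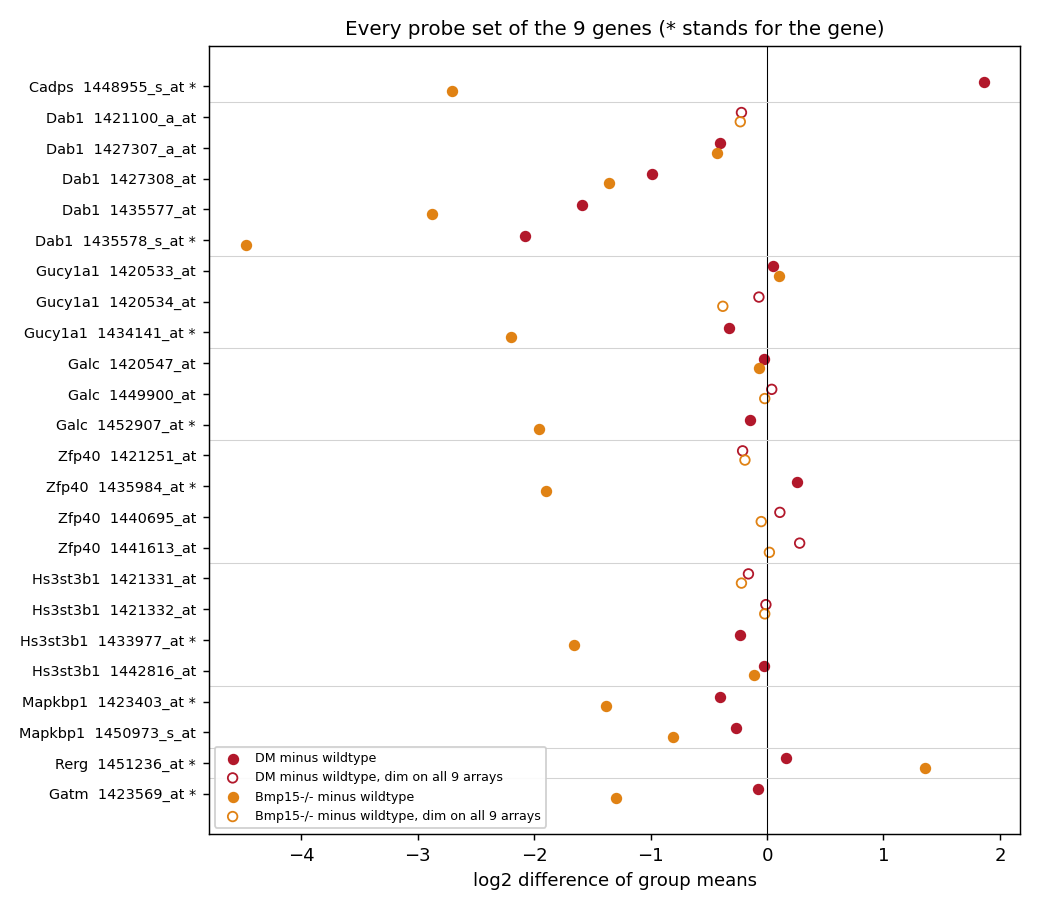
Log2 difference of group means (horizontal axis) for each of the 24 probe sets of the 9 genes (vertical axis), with DM minus wildtype in red and Bmp15-/- minus wildtype in orange. Open circles are probe sets dim on all 9 arrays, and the asterisk marks the probe set that stands for the gene. Galc 1420547_at sits at 0 beside 1452907_at at -1.96.

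The 9 genes had 24 probe sets, none of them shared with another gene. Of the 15 that do not stand for a gene, 8 were dim on all 9 arrays, 4 were dim on some and 3 were above the dim level on all. Of those 3, 1 (Mapkbp1) followed the probe set that stands for its gene, and 2 (Galc and Gucy1a1) overlapped across the genotypes. The plot of all probe sets shows both cases.

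Single arrays moved the values of the 9 genes unevenly. Leaving out each array in turn kept the difference between Bmp15-/- and wildtype between -4.55 and -4.42 in Dab1, between -1.72 and -1.59 in Hs3st3b1 and between -2.07 and -1.80 in Galc. It ranged more widely in Cadps, from -3.20 without Bmp15-/- array 1 to -2.42 without Bmp15-/- array 2, and in Gucy1a1, from -2.59 to -1.79 with the same arrays left out. No array left out changed the sign of that difference in any of the 9 genes. The difference between DM and wildtype changed sign in Zfp40 without DM array 3 (-0.06), in Hs3st3b1 without DM array 1 (0.16), in Rerg without wildtype array 2 (-0.11) and in Gatm without DM array 1 (0.03), where it was small to begin with. Without wildtype array 1 the Gatm difference was 0.0, against -0.08 with all arrays.

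**Figure D3:**
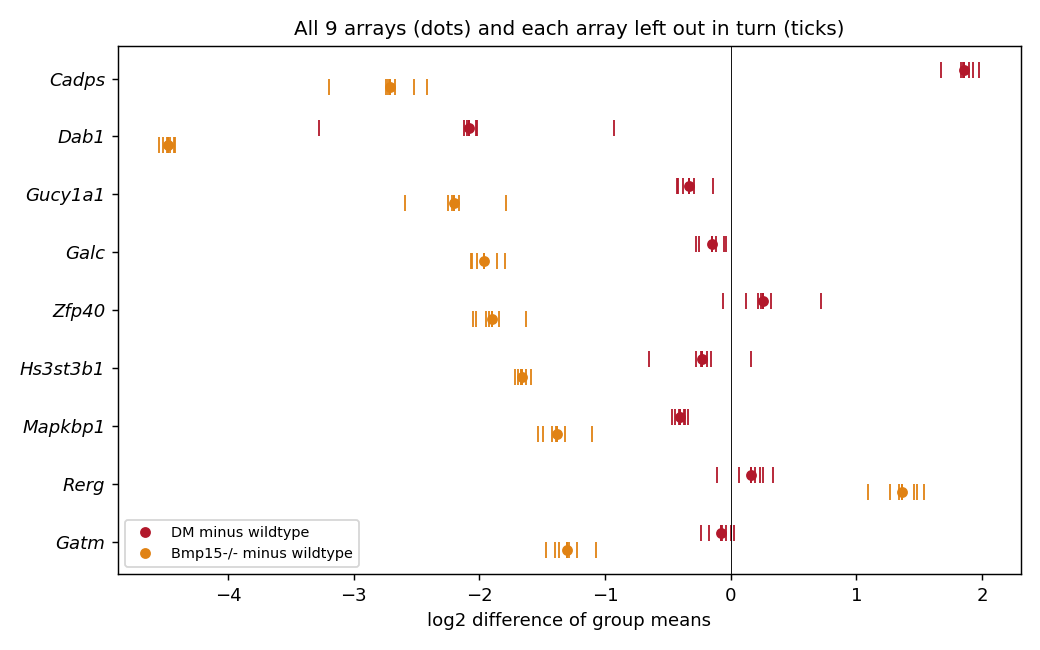
Log2 differences from wildtype for the 9 genes, DM in red and Bmp15-/- in orange. Dots use all 9 arrays and ticks leave out 1 array each. The DM tick marks of Dab1 run from -3.28 to -0.93, and the Bmp15-/- marks of every gene stay on one side of 0.

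The DM position was computed for each gene as the DM distance from wildtype divided by the Bmp15-/- distance, so that 0 is the wildtype level, 1 the Bmp15-/- level and values under 0 lie beyond wildtype. It was -0.69 in Cadps, -0.14 in Zfp40, 0.06 in Gatm, 0.08 in Galc, 0.12 in Rerg, 0.14 in Hs3st3b1, 0.15 in Gucy1a1, 0.29 in Mapkbp1 and 0.46 in Dab1. Dab1 lay closest to the midpoint of 0.5, and its position ran from 0.21 without DM array 2 to 0.73 without DM array 1. Without DM array 1 it would therefore be counted with the genes nearer Bmp15-/-. On the other Dab1 probe sets the position was 0.55 to 0.98, nearer Bmp15-/- on each.

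Across all genes tested, limma called 1219 of 13447 (9.07%) between Bmp15-/- and wildtype at an adjusted p under 0.05, 3780 (28.1%) between DM and wildtype and 437 (3.25%) between DM and Bmp15-/-. The median DM position of the 1219 called genes was 1.15, and in 767 of them DM lay beyond Bmp15-/-. DM lay nearer wildtype in 121, which is 0.9% of genes tested and 9.93% of those called. In 19 of the 121 DM lay on the far side of wildtype, as in Cadps and Zfp40. The difference between the mutants was itself called in 35 (0.26%) of the 121, 29 lower and 6 higher in Bmp15-/- than in wildtype. All the listed genes but Dab1 are among the 35, and nothing is read from that count, since their choice used these contrasts. These counts depended on the arrays: the 1219 became 593, 464 and 545 without wildtype array 1, 2 or 3, and 613 and 445 without Bmp15-/- array 2 or 3. The 121 became 45, 27 and 51 without wildtype array 1, 2 or 3, and 59 and 50 without Bmp15-/- array 2 or 3. The 35 became 15, 9 and 13 without wildtype array 1, 2 or 3, and 12, 7 and 19 without Bmp15-/- array 1, 2 or 3. The 437 became 268, 252 and 245 without wildtype array 1, 2 or 3, 128 and 105 without Bmp15-/- array 1 or 2, and 255, 922 and 278 without DM array 1, 2 or 3.

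**Figure D4:**
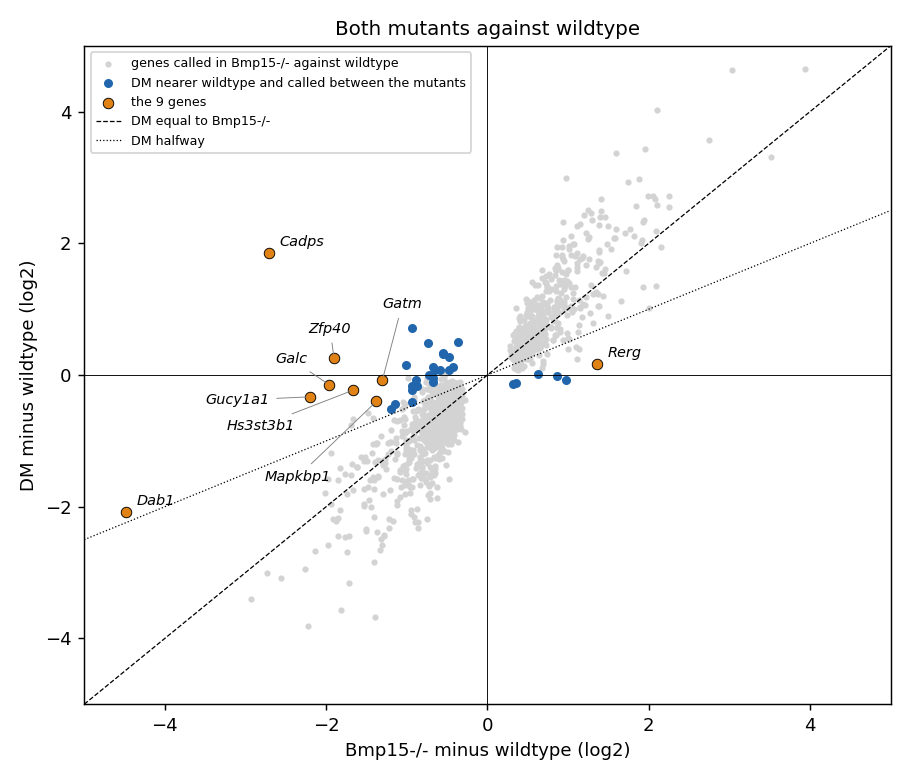
DM minus wildtype (vertical axis) against Bmp15-/- minus wildtype (horizontal axis), both log2, for the genes called between Bmp15-/- and wildtype. Orange points are the 9 listed genes, blue points other genes with DM nearer wildtype and a call between the mutants, the dashed line equal differences and the dotted line the midpoint. Of the 1219 genes 1098 lie nearer the Bmp15-/- level, and the listed genes lie within 0.40 of the horizontal axis except Cadps at 1.86 and Dab1 at -2.08.

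Of the 35 genes, 27 are not listed, and these differed less in Bmp15-/-. Nothing is read from that, since the listed genes were chosen on this difference. The p-values given for the 27 come from the contrasts that picked them and are no further support. The largest falls were in Efcab7, whose product takes part in Hedgehog signalling at the cilium, and Rsl1, a zinc finger repressor of liver genes. Efcab7 averaged 7.02 ± 0.23 in DM, 6.33 ± 0.22 in Bmp15-/- and 7.53 ± 0.19 in wildtype, a 2.30-fold fall in Bmp15-/- (limma, adjusted p = 0.00327). Rsl1 fell by 1.14 on the log2 scale (adjusted p = 0.00353), Gm10033 by 1.01 (0.0278), and Polr3g, a subunit of RNA polymerase III, and Zfp60 each by 0.94 (0.00278 for Polr3g and 0.0145 for Zfp60), all from limma. The largest rises were 0.97 in Tmem88 (limma adjusted p = 0.0268), 0.86 in 1500015A07Rik (0.0156), 0.63 in Cobll1 (0.0231), 0.36 in the repair gene Rad23b (0.0392) and 0.32 in Pdhb, a subunit of pyruvate dehydrogenase (0.046). The log2 difference of -1.20 in Efcab7 was the largest of the 27, and that of -1.30 in Gatm the smallest of the 9 listed genes.

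The listed genes lie on 8 chromosomes, with Mapkbp1 and Gatm both on chromosome 2 and 87 annotated genes between them. The others are Cadps on 14, Dab1 on 4, Gucy1a1 on 3, Galc on 12, Zfp40 on 17, Hs3st3b1 on 11 and Rerg on 6. Hs3st3b1 shares chromosome 11 with Gdf9, with 338 annotated genes between. To see whether whole stretches around the genes moved, the 5 nearest tested genes on each side of each listed gene were read, 90 in all, which had not been chosen on their values. Between Bmp15-/- and wildtype limma called 11 of the 90 (12.2%, against 9.07% of all genes), 4 higher and 7 lower, with a median difference of -0.01 against -0.04 over all genes. Between DM and wildtype it called 29 (32.2%, against 28.1%), 11 higher and 18 lower (9.95% and 18.2% of all genes). Between DM and Bmp15-/- it called 2 (2.22%, against 3.25%), both higher (1.64% of all genes were higher and 1.61% lower). The pattern of the 35 genes was met by 0 of the 90, against 0.26% of all genes, too rare a pattern for 90 genes to tell. Some neighbours called in Bmp15-/- met the wider description of DM nearer wildtype (0.9% of all genes) without a call between the mutants. Among them were Art4 (DM position 0.40), Sema6d (0.39) and Tmem131l (log2 difference from wildtype -0.20 in DM and -0.53 in Bmp15-/-). Neighbours of this wider kind were not counted, so the 0 of 90 does not show that the stretches lack it. The 11 became 2 without any 1 of the wildtype arrays, and 6, 5 and 3 without Bmp15-/- array 1, 2 or 3. The 29 became 14 and 17 without wildtype array 1 or 2. The 2 became 1 without any 1 of the wildtype arrays, 0 without Bmp15-/- array 1 or 2 and 4 without DM array 1.

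Near Cadps, Cfap20dc fell by 0.92 (limma adjusted p = 0.0292) and Oxsm by 0.77 (0.0198) in Bmp15-/- against wildtype. Fhit, 4 tested genes from Cadps, read 6.30, 6.84 and 6.98 in DM, 5.37, 5.21 and 5.80 in Bmp15-/-, and 5.55, 5.81 and 5.66 in wildtype. Fhit thus shared with Cadps a DM level above both other genotypes (limma, DM against Bmp15-/-, log2 difference 1.25, adjusted p = 0.0133), but its Bmp15-/- arrays overlapped wildtype. Near Mapkbp1, Tyro3 was likewise called between the mutants, higher in DM by 0.47 (limma adjusted p = 0.0417), and Ehd4 rose by 0.55 in Bmp15-/- (0.0401), the opposite direction to Mapkbp1.

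Art4, 5 tested genes from Rerg, had the largest change of the 90 in Bmp15-/-, a fall of 1.66 (limma adjusted p = 0.0147), opposite to Rerg. It read 7.30, 7.81 and 6.34 in DM, 5.89, 6.21 and 6.34 in Bmp15-/-, and 7.63, 7.66 and 8.14 in wildtype. On the other side of Rerg, Plekha5 rose by 0.35 (0.0493). Sema6d near Gatm fell by 1.04 (0.0263), with a DM mean of 8.57 ± 0.37, a Bmp15-/- mean of 7.93 ± 0.46 and a wildtype mean of 8.97 ± 0.08. Near Gucy1a1, Map9 rose by 0.42 (0.043) and Tmem131l fell by 0.53 (0.0219). Ston2 near Galc fell by 0.47 (0.0186), Zfp213 near Zfp40 by 0.68 (0.0242), and 2810001G20Rik near Hs3st3b1 rose by 0.55 (0.0425), all adjusted p from limma.

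The 10 tested genes nearest Dab1 did not share its scatter between DM arrays: the largest gap between DM arrays 1 and 2 among them was 0.41, while Dab1 itself read 8.81 and 4.10 there. With 25 tested genes on each side, a window chosen after seeing the data, 427 genes were read and 2 of them (0.468%, against 0.26% of all genes) had the pattern of the 35. They were Pdhb, 9 tested genes from Cadps and higher in Bmp15-/- where Cadps was lower, and Efcab7, 15 tested genes from Dab1 and lower in Bmp15-/- as Dab1 was. On chromosome 2, Ivd, Mapkbp1 and Gatm lie in that order. All 3 are among the 35 genes and all 3 were lower in Bmp15-/-, as were 29 of the 35. Zfp408, lower in Bmp15-/- by 0.42, and Cobll1, higher by 0.63, are also on chromosome 2 and among the 35. The stretch from Ivd to Gatm was set by genes of the pattern, so only the other genes in it were counted. Of the 64 other tested genes between Ivd and Gatm, limma called 4 in Bmp15-/- against wildtype, all higher, and 0 had the pattern. Over all genes 9.07% were called there, 3.29% higher and 5.78% lower, and 0.26% had the pattern. A share of 0.26% is too small for 64 genes to tell.

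**Figure D5:**
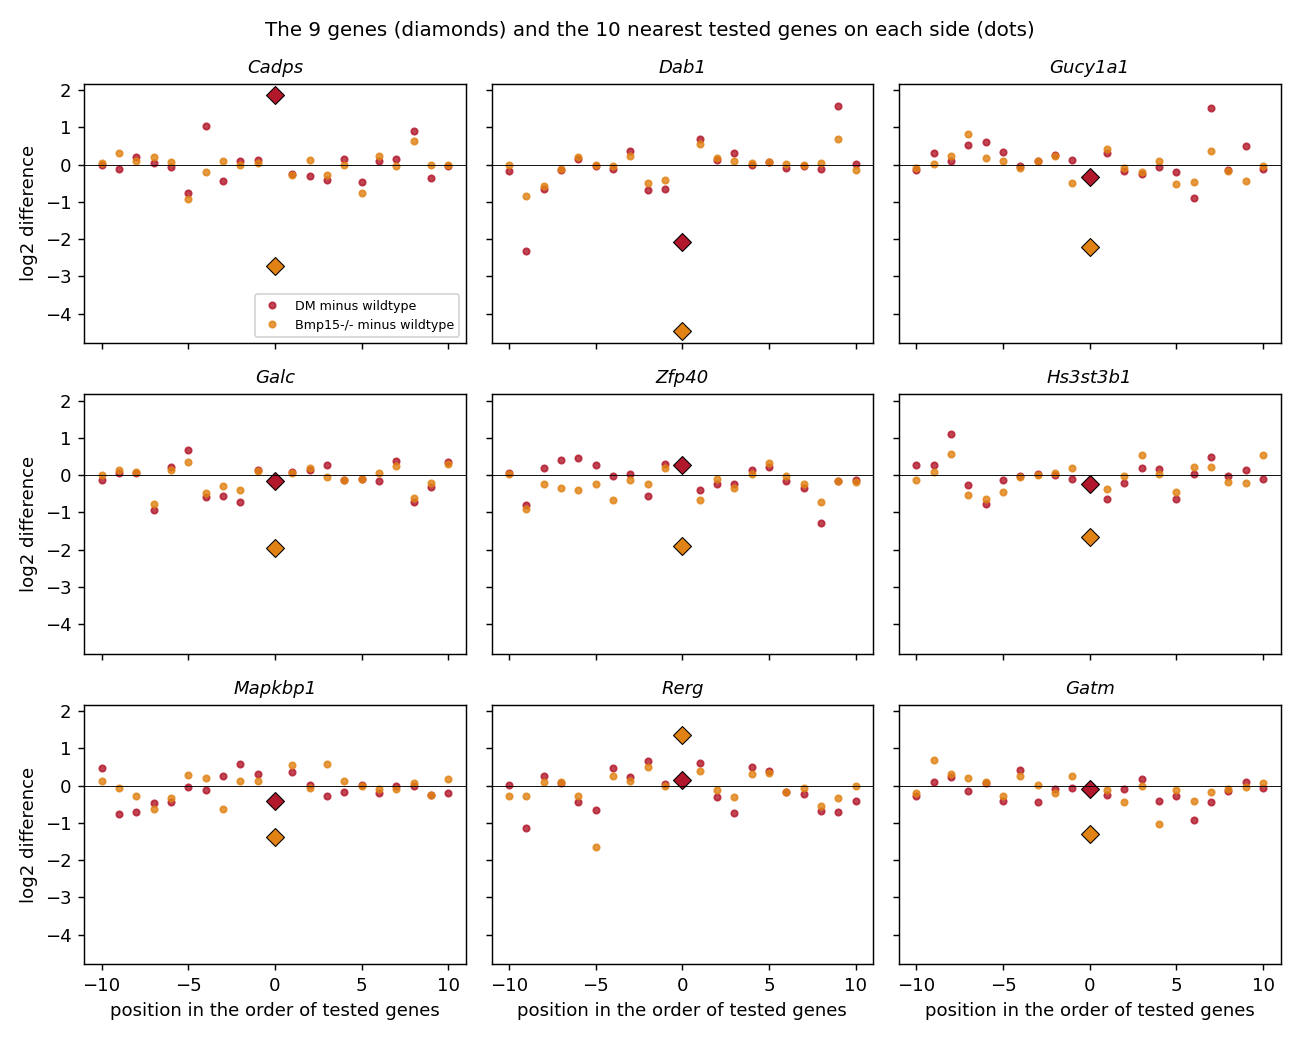
Log2 difference from wildtype (vertical axis) for each of the 9 genes (diamonds) and up to 10 tested genes on each side (dots), by position in the order of tested genes along the chromosome (horizontal axis), DM in red and Bmp15-/- in orange. In the Rerg panel Art4 lies at -1.66, 5 genes away and opposite to Rerg, and in the Gatm panel Sema6d lies at -1.04, beside Gatm at -1.30.

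Partners of the listed genes were read from 9 lists of 206 genes, of which 161 were tested. Limma called 19 (11.8%) between Bmp15-/- and wildtype, 47 (29.2%) between DM and wildtype and 9 (5.59%) between DM and Bmp15-/-, against 9.07%, 28.1% and 3.25% of all genes. The 19 became 9, 7 and 11 without wildtype array 1, 2 or 3, and 11 and 6 without Bmp15-/- array 2 or 3. The 9 became 3 without Bmp15-/- array 1 or 2. In 18 of the 19 DM lay nearer Bmp15-/- than wildtype or beyond Bmp15-/-, and the 1 exception was Hs6st2. The pattern of the 35 was met by 0 of the 19. Most called genes were alike in this: of all 1219 called, DM lay nearer or beyond Bmp15-/- in 1098, and 35 had the pattern.

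In the reelin list, 3 of 18 tested genes rose and 3 fell in DM against wildtype, and 1 rose and 2 fell in Bmp15-/- against wildtype. The receptors that DAB1 serves both fell, Vldlr 2.66-fold (limma adjusted p = 0.00127) and Lrp8 1.57-fold (0.021). Lrp8 was lower in DM than in Bmp15-/- (limma adjusted p = 0.0197), averaging 9.32 ± 0.20 in DM, 10.11 ± 0.16 in Bmp15-/- and 10.76 ± 0.18 in wildtype. Vldlr averaged 10.37 ± 0.29 in DM, 10.55 ± 0.12 in Bmp15-/- and 11.96 ± 0.19 in wildtype. The ligand Reln was 2.87-fold higher in DM than in wildtype (limma adjusted p = 0.00149), and Pik3r1, a regulatory subunit of PI3-kinase, rose by 1.36 in DM (0.00019) and by 0.62 in Bmp15-/- (0.0242).

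In the cyclic GMP list around Gucy1a1, 3 of 17 genes rose and 2 fell in DM, and 1 rose and 1 fell in Bmp15-/-. Npr2, the receptor through which cumulus cells make the cyclic GMP that holds the oocyte in meiotic arrest, fell 1.40-fold in Bmp15-/- (limma adjusted p = 0.0122) and 1.37-fold in DM (0.00504). The phosphodiesterase Pde2a rose 1.28-fold in Bmp15-/- (0.0409) and 1.35-fold in DM (0.00761). Pde5a rose 2.12-fold in DM (limma adjusted p = 0.0126) and Pde9a fell 2.01-fold in DM (0.00837). Npr2 averaged 10.80 ± 0.06 in DM, 10.77 ± 0.07 in Bmp15-/- and 11.25 ± 0.12 in wildtype, an order in which DM overlapped Bmp15-/- where Gucy1a1 did not.

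In the vesicle list around Cadps, 4 of 23 genes rose and 1 fell in DM, and 2 rose and 1 fell in Bmp15-/-. Unc13b, another priming factor, rose 1.41-fold in Bmp15-/- (limma adjusted p = 0.013) and 2.13-fold in DM (9.91e-05), so it was high in DM as Cadps was but not low in Bmp15-/-. The calcium sensor Syt7 rose by 0.44 in Bmp15-/- (0.0131) and 0.45 in DM (0.00376), Rab27a, a GTPase of secretory vesicles, fell by 0.48 in Bmp15-/- (0.0482) and 1.03 in DM (0.000598), and Syt4 rose by 0.39 in DM (0.0255). Syt4 was dim on all wildtype arrays.

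In the heparan sulfate list around Hs3st3b1, 3 of 28 genes rose and 4 fell in DM, and 2 rose and 2 fell in Bmp15-/-. Hs6st2, the 6-O-sulfotransferase, fell 3.24-fold in Bmp15-/- (limma adjusted p = 0.0117) and read 5.17, 6.63 and 6.03 in DM, 5.26, 4.97 and 4.79 in Bmp15-/-, and 6.85, 6.80 and 6.46 in wildtype. Its DM arrays spread from the Bmp15-/- to the wildtype range, with DM array 1 the lowest as in Hs3st3b1. Bmp15-/- arrays 2 and 3 were dim for Hs6st2, so the size of its fall is limited by background. Hs3st1, a sulfotransferase of the same family as Hs3st3b1, fell 1.76-fold in Bmp15-/- (0.018) and 2.46-fold in DM (0.000617). The endosulfatase Sulf1 rose 1.81-fold in Bmp15-/- (0.00707) and 3.84-fold in DM (3.93e-05), and the core protein gene Gpc4 rose 1.54-fold in Bmp15-/- (0.0147) and 1.58-fold in DM (0.00365). Xylt2, which starts the chain, fell by 0.45 in DM (0.0172) and was dim on DM arrays 1 and 3.

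In the creatine and arginine list around Gatm, 1 of 15 genes rose and 3 fell in DM, and 2 were called in Bmp15-/- by limma, both lower. Shmt2, the mitochondrial enzyme that makes glycine, fell 1.89-fold in Bmp15-/- (limma adjusted p = 0.00588) and 2.98-fold in DM (0.000107), and the arginase Arg1 fell by 0.69 in Bmp15-/- (0.0184) and 0.98 in DM (0.0011). Gamt, which completes creatine synthesis from the product of GATM, fell by 0.57 in DM (0.0116), and Ass1 rose by 0.87 in DM (0.00621). Gamt was dim on all 3 DM arrays and on 1 Bmp15-/- array, so its fall rests on a signal near background. In the sphingolipid list around Galc, 0 of 15 genes were called between Bmp15-/- and wildtype by limma, while 3 passed an unadjusted p of 0.05. In DM 2 rose and 2 fell: the sphingomyelin synthase Sgms1 rose by 0.71 (0.00326), Psap, the precursor of the saposins that GALC needs, rose by 0.29 (0.0445), and Gm2a and Gla fell by 0.52 (0.00853) and 0.58 (0.0368).

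In the JNK list around Mapkbp1, 3 of 16 genes rose and 3 fell in DM, and 1 rose and 1 fell in Bmp15-/-. In Bmp15-/- the phosphatase Dusp16 rose by 0.58 (limma adjusted p = 0.0181) and the kinase Map3k1 fell by 0.48 (0.0355). In DM Map3k1 fell by 0.58 (0.0057), Mapk8, which encodes JNK1, by 0.51 (0.002) and Traf2 by 0.59 (0.00348), and among those that rose Jun changed by 0.76 (0.0107). In the list of RAS-like GTPases and estrogen receptors around Rerg, Esr1 was the 1 of 19 genes called in Bmp15-/-, where it fell 1.65-fold (limma adjusted p = 0.0147). Esr1, the estrogen receptor alpha gene, fell 3.22-fold in DM (8.53e-05) and was lower in DM than in Bmp15-/- (0.00959), whereas Rerg in DM stayed within the wildtype range. In DM 1 gene of this list rose and 5 fell, Esr1 among them, and Ralb fell by 0.83, Rheb by 0.38 and Rras2 by 0.54 (limma adjusted p = 0.000389, 0.00708 and 0.00806). Among 10 cofactors of KRAB zinc finger proteins, read beside Zfp40, 2 were called in Bmp15-/- and both fell, Hdac2 by 0.38 (0.0254) and Setdb1 by 0.33 (0.0482). In DM 4 of the 10 were called, all lower: these fell by 0.48 (0.00296) and 0.41 (0.00813), and Cbx5 and Hdac1 by 0.48 (0.00458) and 0.34 (0.0439).

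For each listed gene the 2 other tested genes with the most similar profile over the 9 arrays were found by Pearson's r, which is a description of arrays that share genotype. Cadps was most like Ivd, an enzyme of leucine breakdown (r = 0.984), and Dop1b (0.944). Ivd read 8.52, 8.84 and 8.70 in DM, 8.05, 7.65 and 7.75 in Bmp15-/-, and 8.32, 8.31 and 8.48 in wildtype, with the same order of non-overlapping genotypes as Cadps over a smaller range. Dab1 was most like Ctdspl (0.960) and Relch (0.956), which differed by -0.61 and -0.27 between Bmp15-/- and wildtype.

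Gucy1a1 and Galc shared Pogk as the most similar gene, at 0.939 and 0.957, with Zfp746 (0.933) next for Gucy1a1 and Sbsn (0.952) next for Galc. Zfp40 and Hs3st3b1 shared Ddx1, at 0.933 and 0.954, with Ptpn3 (0.930) next for Zfp40 and 4930513N10Rik (0.926) next for Hs3st3b1. Mapkbp1 was most like 9330151L19Rik (0.956) and Efcab7 (0.942), Rerg like Syngr1 (0.953) and Hspa13 (0.947), and Gatm like Thumpd2 (0.970) and Sall2 (0.951).

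Over all probe sets, arrays correlated at 0.988 or more within a genotype and at 0.975 or more between genotypes. The targeted gene Bmp15, which the oocyte makes, read 5.05, 5.09 and 5.08 in DM, 5.10, 5.08 and 5.10 in Bmp15-/-, and 5.10, 9.58 and 8.41 in wildtype on its brightest probe set, so it was at the mutants' level on wildtype array 1 too. Gdf9 read 4.67, 5.30 and 5.63 in DM, 5.70, 6.59 and 4.99 in Bmp15-/-, and 5.03, 8.12 and 6.56 in wildtype. Oocyte markers, 15 of 17 tested, had medians of 5.38 to 5.98 in DM, 5.52 to 6.2 in Bmp15-/- and 5.69 to 6.44 in wildtype. The highest, 6.44, was on wildtype array 2. Values of the listed genes on the wildtype arrays stayed within 0.15 to 0.42 of each other, with 0.9 in Rerg. Medians of 10 cumulus cell markers were 9.75 to 10.4 in DM, 10.33 to 10.44 in Bmp15-/- and 10.4 to 10.61 in wildtype, the highest of the marker lists. Red cell markers, of which 2 of 7 were tested, had medians of 7.06 to 7.59 in DM, 7.41 to 8.15 in Bmp15-/- and 8.68 to 8.99 in wildtype. Of 12 theca and stroma markers 9 were tested. Their medians were 6.2 to 6.43 in DM, 5.93 to 6.49 in Bmp15-/- and 5.39 to 5.92 in wildtype. Both mutants thus lay above wildtype, but the lowest Bmp15-/- median barely passed the highest wildtype median (5.93 against 5.92). Single markers of this list did not all move alike. For Bmp15-/- against wildtype limma called 1 marker higher and 1 lower. For DM against wildtype it called 4 higher and 1 lower. The difference between 3' and 5' Gapdh control probe sets, a sign of RNA amplification, was 0.79 to 0.95 in DM, 0.66 to 0.73 in Bmp15-/- and 0.52 to 0.59 in wildtype. For the actin control probe sets the genotypes overlapped, with 1.85 to 2.12 in DM, 1.85 to 1.92 in Bmp15-/- and 1.87 to 1.9 in wildtype. The part of these measures in the results was not tested.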

How the data were processed

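The authors deposited log2 expression values for 45101 Affymetrix probe sets on 9 arrays. Per the submitters' processing notes, the tools were RMA and affy (versions not given in the sources). The method compresses changes of dim transcripts. Per the labels' protocols, 10 ng of RNA went through 2 rounds of amplification, which favours 3' ends. The number of arrays limits the precision.

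Probe sets were named from the platform annotation, updated through a RefSeq table (GRCm38.p6): 34958 had 1 gene, 932 several and 9211 none. For each of 18194 genes the probe set of highest mean was used. Genes above the 40th percentile of an array on at least 3 arrays were tested, 13447 in all. One limma 3.58.1 fit (lmFit, eBayes; R 4.3.3) had genotype as its only term and 6 residual degrees of freedom; p-values were two-sided, with Benjamini-Hochberg adjustment over all genes tested and a threshold of 0.05. Scripts were tested on simulated data. Tables and plots used Python 3.11.15, pandas 2.3.3 and matplotlib 3.10.9.

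The listed genes and the lists of partners were chosen with earlier results of these data known. The genes named besides them are the called neighbours (the 5 tested genes on each side; those called in DM only are given as counts), up to 4 called genes of each partner list per comparison, the 2 most similar profiles, and the 5 largest falls and rises among other genes of the pattern with all Bmp15-/- arrays outside the other 6. Cadps2 and Gucy1b1 were named after their values were seen. Samples with the same number correlated between -0.08 and 0.258 in their deviations, with 2 of 9 pairs over 0.1, so the numbers were not taken as pairs. Samples with different numbers correlated between -0.204 and 0.17. These values do not show that the numbers carry no pairing. The alternatives were no filter on dim genes, the probe set of highest variance, quantile normalization, a floor at the 40th percentile, a replicate block and each array left out.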

Additional observations from a re-analysis of the deposited data

Results flagged for a closer look

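Cadps differed from wildtype in opposite directions in the 2 mutants: by 1.86 in DM and by -2.71 in Bmp15-/- on the log2 scale. All 3 DM arrays lay above and all 3 Bmp15-/- arrays below the wildtype arrays. The limma fit over all genes calls Cadps between the mutants, but the gene was chosen for this difference, so no p is given and the call is no support for it.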

How the results depend on the processing

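The differences of the 9 genes between genotypes gave 378 alternative values, of which 372 moved by less than the spread between replicates and 6 moved more, all 6 with dim values raised to the 40th percentile: DM against Bmp15-/- became 4.00 in Cadps, 1.45 in Zfp40 and 0.59 in Gatm, and Bmp15-/- against wildtype became -2.14, -1.19 and -0.68 in the same genes. In Dab1, whose DM arrays scattered, that spread was 1.36, so large changes of Dab1 are among the 372. Bmp15-/- against wildtype became -3.45 in Dab1 with dim values raised, against -4.48. DM against wildtype became -3.28 in Dab1 without DM array 1, against -2.08. The 372 are therefore not all small changes. Leaving out 1 array at a time gave 445 to 1663 called genes between Bmp15-/- and wildtype, 2648 to 4157 between DM and wildtype and 105 to 922 between the mutants, 27 to 167 called genes with DM nearer wildtype and 7 to 39 of them called between the mutants. Called neighbours ranged over 2 to 15, 14 to 29 and 0 to 4, and called partners over 6 to 23, 32 to 52 and 3 to 10 (Bmp15-/- against wildtype, DM against wildtype, DM against Bmp15-/-). Fewer samples lower the residual degrees of freedom, yet some counts rose. Without DM array 2 the called genes numbered 1663, 4157 and 922 in these comparisons, against 1219, 3780 and 437 with all arrays. The causes of these changes were not tested. With the replicate block, calls numbered 1084 between Bmp15-/- and wildtype, 3587 between DM and wildtype, 360 between the mutants and 102 with DM nearer wildtype. The numbers were not taken as pairs, and the block moved no count by over 1.5 times. The probe set of highest variance gave 1 called neighbour between the mutants, and the cause was not tested. With 25 genes on each side, chosen after seeing the data, the called neighbours were 47, 117 and 23 of 427 in the 3 comparisons above, a larger window. Signals of Dab1, Zfp40 and Gatm in Bmp15-/- were dim on all 3 arrays, so the sizes of their differences are limited by background.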

Other observations

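Genes whose symbol begins with Zfp, most of them zinc finger genes, made up 7 of the 35 genes (20.0%) called in Bmp15-/- with DM nearer wildtype and called between the mutants, against 286 of 13447 genes tested (2.13%). Zfp40 is 1 of the 7. This group was noticed after its values were seen and gets no test. Between Bmp15-/- and wildtype, 51 of the 286 Zfp genes were called (17.8%), against 9.07% of all genes tested.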
